A study of Mus musculus with 9 samples.

Results

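Transcripts of the subunits of the constitutive proteasome were followed in the mouse macrophage line RAW 264.7 after pamidronate, with and without geranylgeraniol (GGOH). The genes were all those whose symbol is Psma, Psmb, Psmc or Psmd followed by a number, with Psmb8, Psmb9 and Psmb10 left out because they encode the inducible subunits of the immunoproteasome. The rule took 36 of the 49315 genes counted, 16 of the core particle (Psma and Psmb) and 20 of the regulatory particle (Psmc and Psmd). It used symbols only and no measured value. Of the 36 genes, 35 had enough counts to be tested. Psmb11, a core subunit known from thymus epithelium, was not tested, with 0 counts over the 3 control libraries, 1 over the 3 pamidronate libraries and 6 over the 3 pamidronate + GGOH libraries.

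The proteasome degrades proteins that carry ubiquitin chains. Its core is a barrel with outer rings of alpha subunits, which gate the entrance, and inner rings of beta subunits, of which Psmb5, Psmb6 and Psmb7 carry the chymotrypsin-like, caspase-like and trypsin-like activities. The regulatory particle caps the barrel. Its base holds the ring of Psmc ATPases that unfold substrates together with the large Psmd1 and Psmd2 scaffolds and the ubiquitin receptor Psmd4, and its lid holds the other Psmd subunits, including Psmd14, which removes ubiquitin chains. Psmd5, Psmd9 and Psmd10 carry Psmd names but are chaperones that help the base assemble and leave the finished particle. When proteasome activity is limiting, the transcription factor encoded by Nfe2l1 is known to raise subunit genes together, and interferon is known to induce the subunits that take the place of the catalytic ones in the immunoproteasome.

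RAW 264.7 cells turn into osteoclast-like cells under RANKL, the cytokine that osteoclast precursors need. The growth notes put 20 ng/ml RANKL on the cells after 24 h in culture, for the samples of all groups, while the control samples are labelled as untreated. Pamidronate (140 µM), a bisphosphonate that blocks synthesis of the isoprenoid lipids attached to small GTPases, was given after a total of 48 h for another 24 h, alone or with 5.25 µM GGOH, an alcohol that cells can convert into 1 of those lipids. Each of the 3 groups had 3 libraries, called control, pamidronate and pamidronate + GGOH here. The series' design text gives the purpose of GGOH as restoring normal function, so the comparisons ask which subunit transcripts differ with pamidronate, which differ again when GGOH is present, and how the last group stands against the control. The libraries with GGOH also have a percentage in their names whose meaning is not given.

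Libraries held 14356069 to 18957968 counts, and levels are given as CPM (counts scaled to library size with TMM factors). Macrophage markers were present in every group, with summed levels of 15169 to 19913 CPM in the control, 4338 to 6130 CPM with pamidronate and 6307 to 9226 CPM with pamidronate + GGOH, and all 7 were called lower with pamidronate. Of 8 osteoclast markers, 6 were tested, 3 called higher and 1 lower with pamidronate, and their summed level was 161 to 183 CPM in the control, 145 to 166 CPM with pamidronate and 176 to 246 CPM with pamidronate + GGOH. Among them, Calcr, the calcitonin receptor, was at 0 in every control and pamidronate library, and Ctsk, the collagen-degrading cathepsin, stood at 3.74 to 6.55 CPM in the control, 29.9 to 36.0 CPM with pamidronate and 8.10 to 12.4 CPM with pamidronate + GGOH. Dcstamp and Itgb3 were also called higher with pamidronate, Nfatc1 was called lower (log2 fold change -0.66), and Acp5 and Mmp9 were not called. Nfatc1 held most of the summed osteoclast level in the control (mean 134 CPM) and with pamidronate (84.8 CPM). Mmp9 (86.8 CPM) and Nfatc1 (81.9 CPM) together held most of it with pamidronate + GGOH. With GGOH against pamidronate alone, Ctsk and Acp5 were lower while Mmp9 and Itgb3 were higher. Mitochondrially encoded genes held 10.42% to 10.82% of counts in the control, 3.709% to 5.189% with pamidronate and 5.432% to 6.313% with pamidronate + GGOH. The part that these differences play in the subunit results was not tested. In bulk RNA, fewer cells of a type and less RNA per cell cannot be told apart.

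Pamidronate did not move the subunit genes together. In edgeR's quasi-likelihood test over 15963 genes, with a gene called at a Benjamini-Hochberg adjusted p under 0.05, 24 of the 35 tested subunit genes were called, 11 higher and 13 lower than in the control, while upper-quartile scaling gave 19 higher and 7 lower. The 24 are 68.6% of the subunit genes, beside 69.2% of all genes tested that were called in this comparison (36.2% higher and 32.9% lower). At least 2-fold changes were found in 4 of 35 (11.4%), beside 39.4% of all genes tested. Those 4 were Psmb6 and Psmd8, which rose, and Psma8 and Psmc5, which fell. The median log2 fold change was 0.01 over the 35 subunit genes and 0.08 over all genes tested, and the fitted values ran from -1.61 to 1.52. Upper-quartile scaling moved the median of all genes to 0.28 and that of the subunit genes to 0.21, so the balance of small rises and falls depends on the scaling while the spread between genes does not. The libraries of both groups lay apart for 26 of the 35 genes, beside 73.4% of all genes tested.

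**Figure D1:**
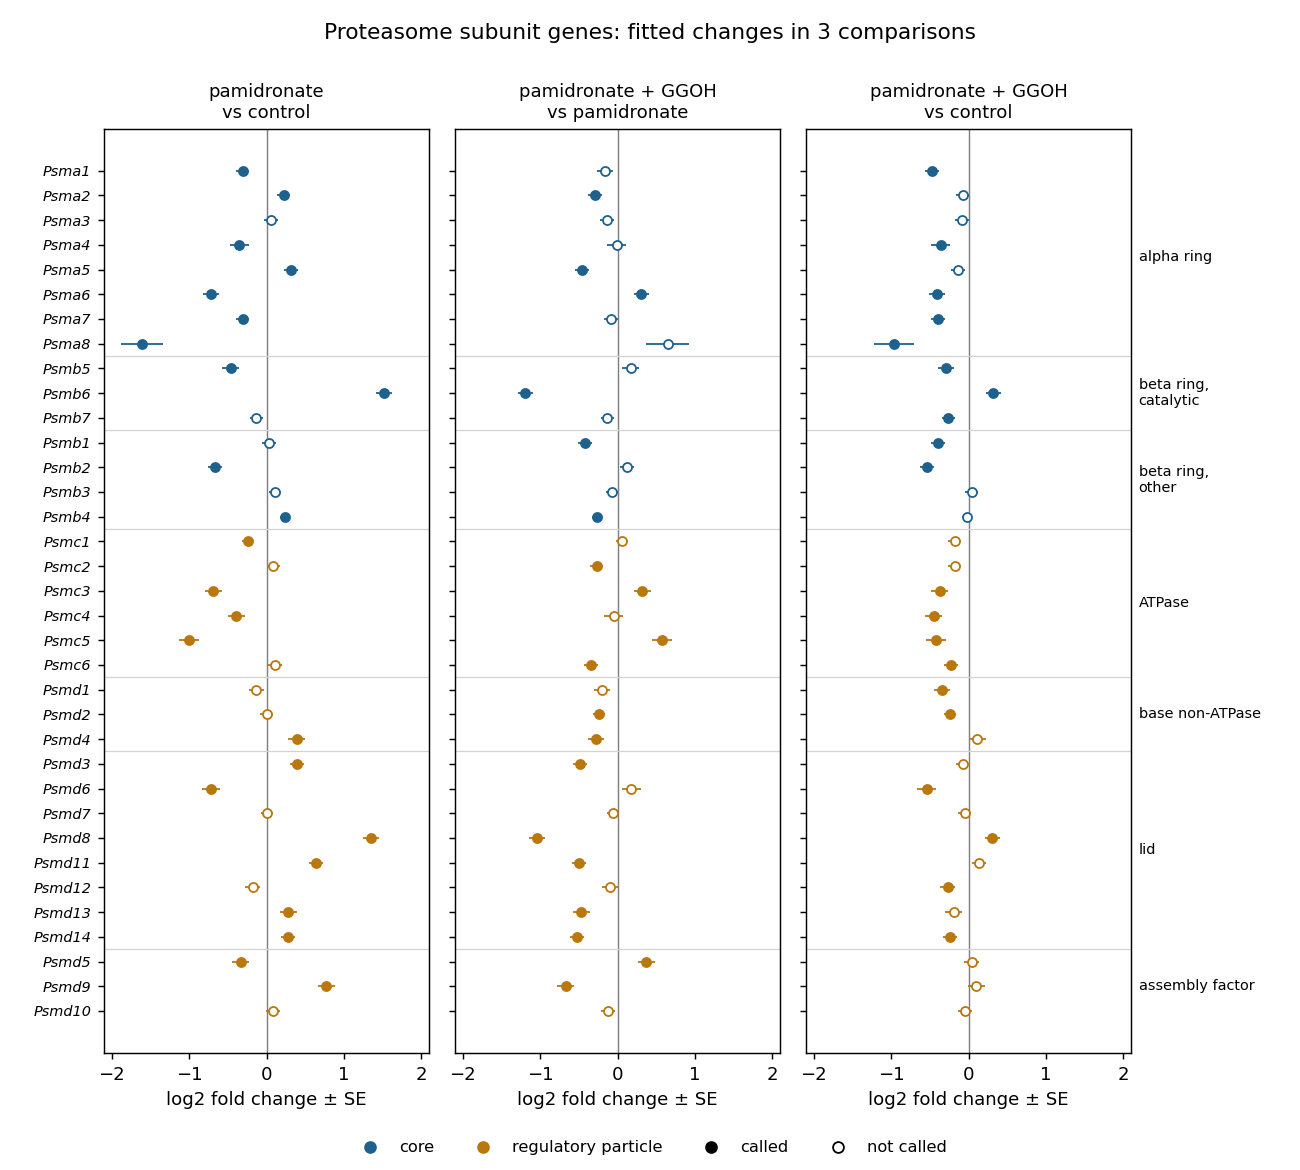
Fitted log2 fold changes (points, with bars of 1 SE) of the 35 tested subunit genes, 1 panel for each comparison, ordered by place in the particle; filled points were called at an adjusted p under 0.05 and open points were not. With pamidronate, Psmb6 and Psmd8 stand to the right of all others at 1.52 and 1.35 and Psma8 to the left at -1.61, and with pamidronate + GGOH against the control every point lies between -0.96 and 0.32.

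The 3 catalytic genes of the core went different ways with pamidronate. Psmb6, the caspase-like subunit (ENSMUSG00000018286, GRCm38 chromosome 11, 70525367 to 70527858), stood at 94.0, 86.1 and 87.9 CPM in the control, 238, 255 and 273 CPM with pamidronate and 128, 106 and 102 CPM with pamidronate + GGOH. The pamidronate libraries were all far above the others, and the pamidronate + GGOH libraries lay just above the control without overlap. Psmb6 rose 2.86-fold with pamidronate, or by 1.52 ± 0.10 on the log2 scale (SE, edgeR adjusted p = 1.26e-08). Psmb5, the chymotrypsin-like subunit (ENSMUSG00000022193, chromosome 14, 54614120 to 54617995), stood at 24.2, 25.9 and 25.4 CPM in the control, 18.8, 18.8 and 17.3 CPM with pamidronate and 18.3, 21.7 and 21.7 CPM with pamidronate + GGOH. It fell with pamidronate by 0.46 ± 0.11 on the log2 scale (SE, adjusted p = 0.00131), with every pamidronate library under every control library. Psmb7, the trypsin-like subunit, stood at 86.4, 89.7 and 90.3 CPM in the control, 83.5, 83.0 and 76.3 CPM with pamidronate and 71.7, 70.8 and 79.9 CPM with pamidronate + GGOH. Its pamidronate libraries lay under the control libraries, but the difference of -0.13 ± 0.08 (SE) was not called (adjusted p = 0.155). It was called at -0.19 (adjusted p = 0.0290) without pamidronate + GGOH replicate 3. With upper-quartile scaling Psmb7, the middle of the 3 catalytic genes, stood at 0.06 and was not called, so its sign depends on the scaling. A finished particle holds these 3 subunits in equal number, while the level of Psmb6 relative to Psmb5 and Psmb7 was highest with pamidronate.

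**Figure D2:**
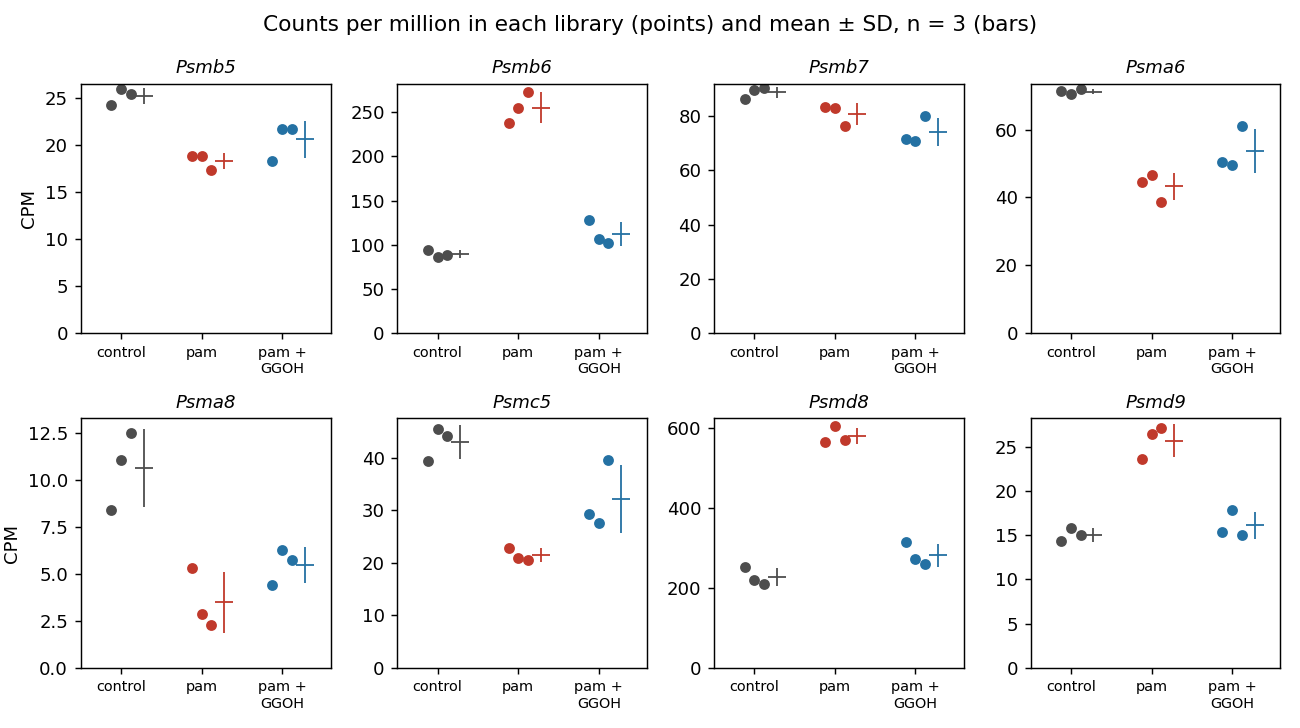
CPM (vertical axes from 0, 1 panel a gene) of 8 subunit genes in each library (points) with the group mean and SD (bars, n = 3). Psmb6, Psmd8 and Psmd9 have their 3 pamidronate libraries above all others, while Psma6, Psma8, Psmb5, Psmb7 and Psmc5 have them under every control library.

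The bases before the start of Psmb6 and Psmb5 are shown because these catalytic genes went opposite ways and both hold the antioxidant response core TGACNNNGC, the sequence bound by Nfe2l1 and its relatives. Those of Psmd8 and Psmc5 are shown as the regulatory particle genes with the largest rise and the largest fall. The sequences are from RefSeq on GRCm38.p6, read 5′ to 3′ on the strand of the gene and ending at the base before the start of RefSeq's transcript or of another annotated exon. They lie at chr11:70525107-70525356 on the plus strand (Psmb6), chr14:54617996-54618245 on the minus strand (Psmb5), chr7:29180702-29180923 on the minus strand (Psmd8) and chr11:106255935-106256153 on the plus strand (Psmc5). Capitals mark TGACNNNGC, GGGCGG (the Sp1 box) and CCGGAA (the ETS core) on either strand.
Psmb6: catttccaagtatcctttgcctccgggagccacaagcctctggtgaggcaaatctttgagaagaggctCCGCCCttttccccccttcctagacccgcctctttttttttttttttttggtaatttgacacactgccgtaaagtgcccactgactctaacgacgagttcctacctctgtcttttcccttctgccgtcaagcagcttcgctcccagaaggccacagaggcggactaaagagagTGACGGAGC
Psmb5: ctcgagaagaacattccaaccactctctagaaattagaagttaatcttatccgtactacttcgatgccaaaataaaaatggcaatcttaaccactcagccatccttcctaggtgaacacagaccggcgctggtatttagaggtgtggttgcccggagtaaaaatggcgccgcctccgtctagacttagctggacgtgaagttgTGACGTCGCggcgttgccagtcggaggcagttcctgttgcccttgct
Psmd8: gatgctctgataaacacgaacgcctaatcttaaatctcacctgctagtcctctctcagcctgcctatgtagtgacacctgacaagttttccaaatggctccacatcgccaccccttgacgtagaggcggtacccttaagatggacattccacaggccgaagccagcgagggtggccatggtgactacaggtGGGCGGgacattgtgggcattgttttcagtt
Psmc5: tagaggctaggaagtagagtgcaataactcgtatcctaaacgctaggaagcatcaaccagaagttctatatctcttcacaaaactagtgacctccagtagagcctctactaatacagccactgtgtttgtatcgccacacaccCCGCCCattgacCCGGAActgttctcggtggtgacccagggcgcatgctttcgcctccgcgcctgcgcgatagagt
The match of TGACNNNGC begins 9 bases before the start in Psmb6 and 47 bases before it in Psmb5. Psmd8 and Psmc5 have no such letters in these windows. A match is a description of the letters and not evidence of binding.

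Promoter windows of 300 bases (250 before and 50 after the start) were found in RefSeq's table for 29 of the 36 genes, in 31 windows. Of 13 motifs searched on both strands, TGACNNNGC was in 5 of the 31 windows (16.1%, beside 12.4% of 32851 windows of all genes), those of Psmb5, Psmb6, Psmc6, Psmd9 and Psmd12. With pamidronate, Psmb6 and Psmd9 of these rose, Psmb5 fell, and Psmc6 (0.11, adjusted p = 0.270) and Psmd12 (-0.18, adjusted p = 0.113) were not called. CCGGAA was in 16 windows of 15 genes (51.6%, beside 14.9% of all windows), 12 of 18 windows of the regulatory particle and 4 of 13 of the core. GGGCGG was in 18 windows (58.1%, beside 35.7%) and CCAAT, the box bound by NF-Y, in 12 (38.7%, beside 37.4%). CTTCCGG, which overlaps CCGGAA read on the other strand, was in 11 windows (35.5%, beside 8.9%). The remaining 8 motifs were TATAAA (9.7%, beside 13.6% of all windows), CACGTG (6.5%, beside 7.2%), TGATGNAA (3.2%, beside 4.0%), TGAGTCA (3.2%, beside 5.2%), GAANNTTC (3.2%, beside 7.9%), CTCGCGAG (3.2%, beside 0.9%), GCCATNTTG (3.2%, beside 2.5%) and AACCGTTA (0.0%, beside 0.2%).

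Of the 8 alpha ring genes, 2 rose and 5 fell with pamidronate, beside 36.2% and 32.9% of all genes tested, with a median of -0.31. Upper-quartile scaling gave 3 higher and 2 lower with a median of -0.12. Psma6, a constitutive ring member, stood at 71.3, 70.5 and 71.9 CPM in the control, 44.5, 46.6 and 38.7 CPM with pamidronate and 50.5, 49.5 and 61.1 CPM with pamidronate + GGOH. The 3 groups did not overlap, with the control highest and pamidronate lowest, and the fall with pamidronate was 0.72 ± 0.10 on the log2 scale (SE, adjusted p = 1.64e-05). Psma8, the form of Psma7 known from testis, had the lowest CPM of the tested members, at 8.41, 11.1 and 12.5 CPM in the control, 5.32, 2.85 and 2.29 CPM with pamidronate and 4.43, 6.29 and 5.73 CPM with pamidronate + GGOH. Its pamidronate libraries all lay under the control, and it fell by 1.61 ± 0.27 (SE, adjusted p = 1.28e-04), while Psma7 itself fell by 0.31 ± 0.09 (SE, adjusted p = 0.00697). Psma5 stood at 67.9, 58.6 and 58.3 CPM in the control, 76.6, 75.5 and 79.0 CPM with pamidronate and 59.9, 52.0 and 56.3 CPM with pamidronate + GGOH. It was the ring member with the largest rise (0.32 ± 0.09 SE, adjusted p = 0.00474), a call lost without control replicate 2 (0.23, adjusted p = 0.0781) or control replicate 3 (0.22, adjusted p = 0.0626). Psma2 stood at 70.6, 64.7 and 60.9 CPM in the control, 80.7, 77.7 and 70.7 CPM with pamidronate and 66.1, 61.3 and 59.7 CPM with pamidronate + GGOH. Its control and pamidronate libraries nearly touched, and its rise of 0.22 ± 0.09 (SE, adjusted p = 0.0347) was lost under 11 of 18 alternatives, among them the fits without any single library other than control replicate 1 or pamidronate replicate 3 (0.12 to 0.21, adjusted p = 0.0911 to 0.317). Psma1 (-0.31) and Psma4 (-0.35) also fell, the latter not without pamidronate replicate 3 (-0.28, adjusted p = 0.0868), and Psma3 was not called (0.06 ± 0.09 SE).

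Among the other beta ring genes, which carry no active site, Psmb2 and Psmb4 were called in opposite directions. Psmb2 stood at 86.2, 88.2 and 94.4 CPM in the control, 62.3, 54.3 and 53.3 CPM with pamidronate and 57.2, 60.2 and 67.6 CPM with pamidronate + GGOH. Both treated groups lay under the control and overlapped each other, and the fall with pamidronate was 0.66 ± 0.09 (SE, adjusted p = 1.67e-05). Psmb4 stood at 110, 112 and 107 CPM in the control, 131, 128 and 129 CPM with pamidronate and 112, 106 and 107 CPM with pamidronate + GGOH. Only the pamidronate libraries stood apart, and the rise was 0.24 ± 0.07 (SE, adjusted p = 0.0103), lost without control replicate 2 (0.19, adjusted p = 0.0822) or control replicate 3 (0.16, adjusted p = 0.112). Psmb1 and Psmb3 were not called with pamidronate, at 0.03 ± 0.09 (SE) and 0.11 ± 0.08 (SE). For these 4 genes upper-quartile scaling gave 3 higher and 1 lower with a median of 0.27, beside 7003 higher and 4317 lower of 15963 genes.

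In the base of the regulatory particle, 4 of 6 ATPase genes fell with pamidronate and none rose, beside 32.9% and 36.2% of all genes tested, with a median of -0.32. Upper-quartile scaling gave 2 lower and 2 higher with a median of -0.12. Psmc5 (ENSMUSG00000020708, chromosome 11, 106256154 to 106263120) had the largest fall, from 39.4, 45.5 and 44.1 CPM in the control to 22.9, 20.9 and 20.5 CPM with pamidronate, and stood at 29.2, 27.6 and 39.5 CPM with pamidronate + GGOH. The pamidronate libraries lay under all others, and pamidronate + GGOH replicate 3 reached the control. The fall was 2.01-fold, with an SE of 0.13 on the log2 scale (adjusted p = 7.15e-06). Psmc3 stood at 27.5, 29.2 and 29.4 CPM in the control, 18.8, 17.7 and 16.8 CPM with pamidronate and 19.6, 22.4 and 24.4 CPM with pamidronate + GGOH, 3 groups in order without overlap, and fell by 0.69 ± 0.11 (SE, adjusted p = 4.80e-05). Psmc4, at 29.3, 34.7 and 40.1 CPM in the control, 26.5, 28.1 and 24.7 CPM with pamidronate and 24.6, 26.0 and 25.7 CPM with pamidronate + GGOH, varied most among its control libraries and fell by 0.39 ± 0.11 (SE, adjusted p = 0.00678). Psmc1, at 69.0, 75.5 and 70.0 CPM in the control, 63.7, 60.7 and 57.4 CPM with pamidronate and 59.7, 63.7 and 65.7 CPM with pamidronate + GGOH, fell by 0.24 ± 0.08 (SE, adjusted p = 0.0184), not called without pamidronate replicate 3 (-0.20, adjusted p = 0.0733). Psmc6, at 62.4, 54.1 and 57.8 CPM in the control, 59.7, 62.4 and 65.7 CPM with pamidronate and 47.2, 50.5 and 51.0 CPM with pamidronate + GGOH, and Psmc2 (0.09 ± 0.08 SE) were not called. The 6 ATPases form 1 ring with 1 copy of each, and their fitted values spread from the 2.01-fold fall of Psmc5 to a log2 fold change of 0.11 for Psmc6.

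The scaffolds Psmd1 and Psmd2 showed no call with pamidronate under the main scaling. Psmd1 stood at 145, 151 and 148 CPM in the control, 139, 151 and 113 CPM with pamidronate and 115, 118 and 119 CPM with pamidronate + GGOH, and pamidronate replicate 3 was the lowest of all (log2 fold change -0.13 ± 0.10 SE, adjusted p = 0.226). Psmd4, the ubiquitin receptor, stood at 50.3, 42.7 and 40.4 CPM in the control, 59.5, 54.5 and 61.1 CPM with pamidronate and 53.1, 47.9 and 43.1 CPM with pamidronate + GGOH. Its pamidronate libraries were the highest, and the rise of 0.39 ± 0.11 (SE, adjusted p = 0.00399) was lost without control replicate 3 (0.27, adjusted p = 0.0514). For Psmd1, Psmd2 and Psmd4, upper-quartile scaling gave 2 higher and 0 lower with a median of 0.19, beside 7003 higher and 4317 lower of 15963 genes.

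In the lid, 5 of 8 genes rose and 1 fell with pamidronate, beside 36.2% and 32.9% of all genes tested, with a median of 0.28. Upper-quartile scaling gave 6 higher and 1 lower. Psmd8 (ENSMUSG00000030591, chromosome 7, 29174188 to 29180701), a lid subunit and in CPM the most abundant member in every group, stood at 252, 220 and 210 CPM in the control, 566, 605 and 572 CPM with pamidronate and 315, 272 and 260 CPM with pamidronate + GGOH. Its pamidronate libraries lay far above the rest, a rise of 2.56-fold or 1.35 ± 0.10 on the log2 scale (SE, adjusted p = 4.03e-08). Psmd6, another lid subunit, went the other way, at 54.7, 59.7 and 66.2 CPM in the control, 35.1, 40.7 and 33.7 CPM with pamidronate and 35.4, 41.5 and 47.2 CPM with pamidronate + GGOH, with both treated groups under the control and overlapping each other, and fell by 0.72 ± 0.12 (SE, adjusted p = 6.88e-05). Psmd11, a lid scaffold subunit, rose from 109, 97.8 and 93.4 CPM to 154, 163 and 151 CPM (0.64 ± 0.09 SE, adjusted p = 1.03e-05) and stood at 117, 104 and 109 CPM with pamidronate + GGOH. Smaller rises were found for Psmd3 (0.40 ± 0.09 SE, adjusted p = 7.03e-04), Psmd14 (0.28 ± 0.09 SE, adjusted p = 0.0118) and Psmd13 (0.28 ± 0.11 SE, adjusted p = 0.0381). The call of Psmd14, the deubiquitinating subunit, was lost without control replicate 3 (0.17, adjusted p = 0.138) or pamidronate replicate 2 (0.22, adjusted p = 0.0720), and that of Psmd13 without any single library other than control replicate 3 (0.14 to 0.30, adjusted p = 0.0636 to 0.209). Psmd7 and Psmd12 were not called.

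The assembly chaperones that carry Psmd names also split under the main scaling. Psmd9 (chromosome 5, 123169413 to 123250131) stood at 14.3, 15.8 and 15.0 CPM in the control, 23.6, 26.4 and 27.1 CPM with pamidronate and 15.4, 17.9 and 15.0 CPM with pamidronate + GGOH. It rose by 0.77 ± 0.11 (SE, adjusted p = 2.38e-05), with the pamidronate libraries above all others and the remaining groups overlapping. Psmd5 stood at 37.4, 32.2 and 32.0 CPM in the control, 28.6, 28.7 and 23.8 CPM with pamidronate and 34.9, 33.3 and 36.4 CPM with pamidronate + GGOH. It fell by 0.33 ± 0.11 (SE, adjusted p = 0.0128), a call lost without control replicate 1 (-0.26, adjusted p = 0.0554) or pamidronate replicate 3 (-0.25, adjusted p = 0.0683). Psmd10 was not called (0.08 ± 0.09 SE). Upper-quartile scaling gave 2 of the 3 higher and 0 lower with a median of 0.27, beside 7003 higher and 4317 lower of 15963 genes. Psmd5 was not called with that scaling (-0.13, adjusted p = 0.255) or with a stricter filter on low counts (-0.21, adjusted p = 0.0773).

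Set side by side, the core had 4 genes higher and 7 lower with pamidronate and a median of -0.13, and the regulatory particle had 7 higher and 6 lower and a median of 0.04. Of all genes tested, 36.2% were called higher and 32.9% lower. Upper-quartile scaling gave 7 higher and 4 lower (median 0.06) for the core and 12 higher and 3 lower (median 0.24) for the regulatory particle. The difference of the medians, core minus regulatory, was -0.18 under both scalings. It rested in good part on genes at the edge of the definition: without Psma8 and the 3 assembly chaperones the difference was -0.06. The mean log2 CPM of the 15 core genes minus that of the 20 regulatory genes was 0.22, 0.19 and 0.18 in the control, 0.07, -0.01 and 0.00 with pamidronate and 0.04, 0.09 and 0.12 with pamidronate + GGOH. All control libraries lay above all treated libraries on this measure. Without Psma8 and the chaperones it was 0.23, 0.15 and 0.13 in the control, 0.13, 0.11 and 0.14 with pamidronate and 0.12, 0.14 and 0.17 with pamidronate + GGOH, and the groups overlapped. Within each particle the genes spread over more than 2 log2 units with pamidronate, from Psma8 to Psmb6 in the core and from Psmc5 to Psmd8 in the regulatory particle.

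**Figure D3:**
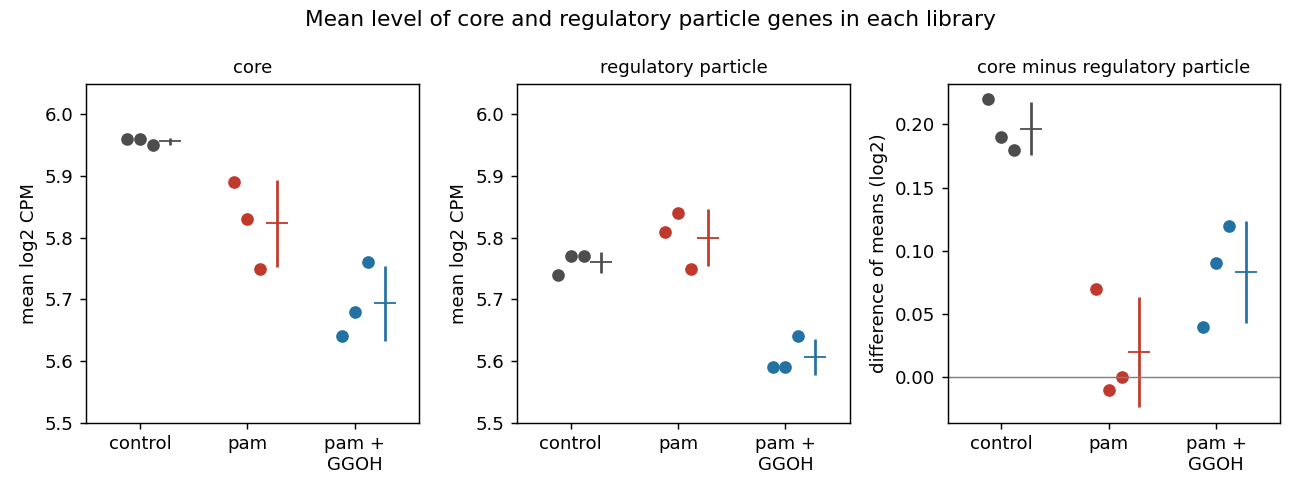
Mean log2 CPM of the 15 core genes (left), of the 20 regulatory particle genes (middle) and their difference (right) in each library (points), with the group mean and SD (bars, n = 3); the axes do not start at 0. With TMM factors the core means fall from 5.96, 5.96 and 5.95 in the control to 5.75 to 5.89 with pamidronate, the regulatory means of these groups overlap, and both are lowest with pamidronate + GGOH except for 1 core library at 5.76. Levels against the control depend on the scaling. Upper-quartile factors moved the core's median log2 fold change from -0.13 to 0.06 with pamidronate and from -0.29 to -0.09 with pamidronate + GGOH.

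The rise of both summed levels with pamidronate lay mainly in Psmb6 and Psmd8. The core genes summed to 1080 ± 21.2 CPM (SD, n = 3) in the control, 1178 ± 7.02 CPM with pamidronate and 942 ± 27.3 CPM with pamidronate + GGOH. The regulatory genes summed to 1345 ± 9.02, 1720 ± 61.5 and 1267 ± 29.2 CPM (SD, n = 3) in the same order. Both sums were highest with pamidronate, where Psmb6 alone had 256 ± 17.3 CPM (SD, n = 3) against 89.3 ± 4.16 in the control and Psmd8 had 581 ± 20.9 against 227 ± 21.8. Without Psmb6 and Psma8 the core mean was 6.11 ± 0.0252 log2 CPM (SD, n = 3) in the control and 5.97 ± 0.0493 with pamidronate, and without Psmd8 and Psmd9 the regulatory mean was 5.75 ± 0.0265 and 5.67 ± 0.0551. These means use TMM factors. Upper-quartile scaling moved the median log2 fold change from -0.13 to 0.06 for all core genes and from 0.04 to 0.24 for all regulatory genes. The direction of differences this small therefore depends on the scaling.

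Levels of different genes were compared per exon length, with the authors' TPM values (counts over a gene's counted exon bases, set to a common sum), within each group. For some genes that length is far above that of the longest protein-coding transcript, at 2370 against 1165 bases for Psma4 and 2300 against 766 for Psmb3. For Psmb5 the lengths were 871 and 899 bases. The order of genes therefore depends on the annotation too. In the control the core was led by Psmb1 at 199 ± 11.2 TPM (SD, n = 3), Psmb2 at 169 ± 16.4 and Psma2 at 156 ± 3.66, and closed by Psma4 at 26.2 ± 2.00 and Psma8 at 14.4 ± 3.49. Psmb6 had rank 6 at 108 ± 2.47 TPM, next to Psma5 at 105 ± 3.56, within the spread of both. With pamidronate Psmb6 led at 339 ± 17.5 TPM, ahead of Psmb1 at 224 ± 5.65, and its share of the core's summed TPM was 20.1% ± 1.45 (SD, n = 3), against 7.56% ± 0.180 in the control and 9.74% to 12.5% with pamidronate + GGOH. Psmd8 led the regulatory particle in all groups, with 16.5% ± 1.59, 34.6% ± 0.723 and 22.1% ± 2.12 (SD, n = 3) of that particle's TPM in control, pamidronate and pamidronate + GGOH. Leaving out Psma8, the highest core gene exceeded the lowest 7.59 times in the control, 15.0 times with pamidronate and 7.46 times with pamidronate + GGOH. The constitutive proteins sit in equal number in 1 barrel, and levels per exon length were unequal in every group. The part of the annotated lengths in this inequality was not tested.

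**Figure D4:**
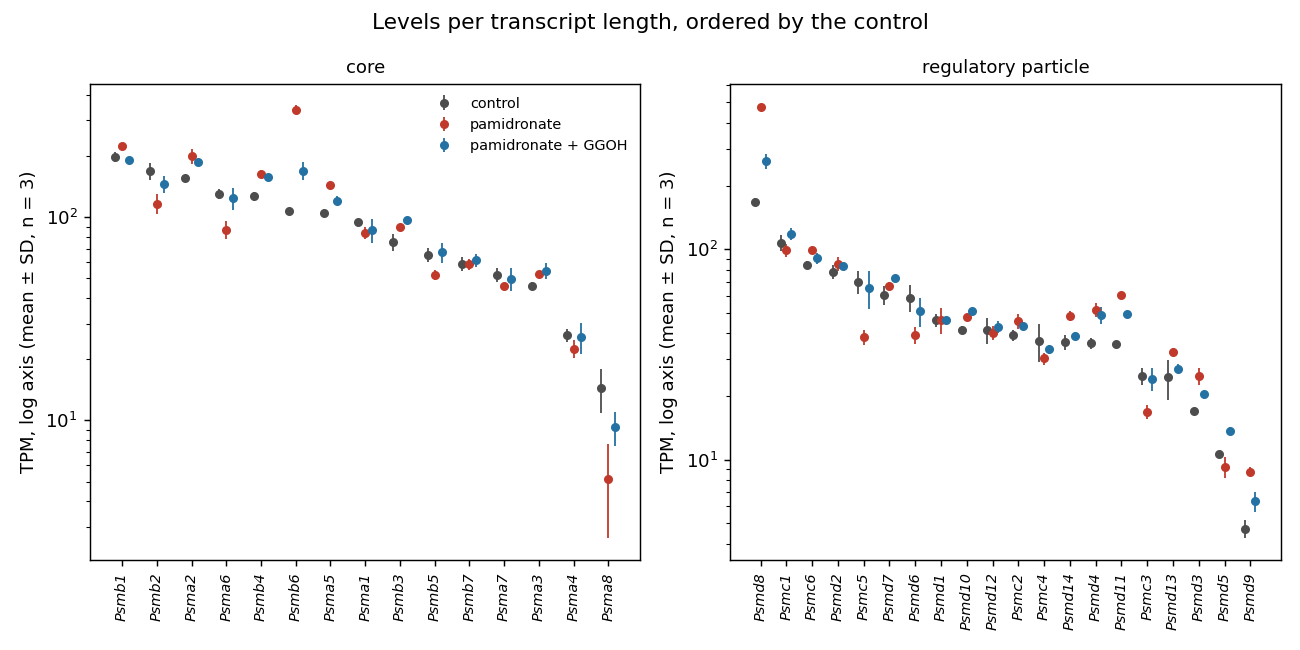
Mean TPM with SD (n = 3, log axis) of the tested core genes (left) and regulatory particle genes (right), ordered by their control mean. Psmb6 with pamidronate (339 TPM) and Psmd8 with pamidronate (472 TPM) stand above the order set by the control, and Psma8 and Psmd9 close the particles.

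With GGOH present, most of the called subunit genes were lower than with pamidronate alone. Of the 35 genes, 19 were called (54.3%, beside 48.8% of all genes tested), 4 higher and 15 lower (25.2% and 23.6% of all genes tested), and upper-quartile scaling gave 4 higher and 14 lower. The median was -0.14, beside 0.00 for all genes tested, and 2 genes differed at least 2-fold (5.71%, beside 18.0%). The groups lay apart for 21 genes, beside 59.6% of all genes tested, and 8 of the 19 calls were lost on leaving out some single library. Psmb6 fell by 1.19 ± 0.10 (SE, adjusted p = 5.40e-07) and Psmd8 by 1.04 ± 0.10 (SE, adjusted p = 1.95e-06), so the genes that pamidronate had raised most stood nearer the control. Psmd9 fell by 0.67 ± 0.11 (SE, adjusted p = 1.87e-04), Psmd14 by 0.52 ± 0.09 (SE, adjusted p = 2.83e-04), Psmd11 by 0.50 ± 0.09 (SE, adjusted p = 2.24e-04) and Psma5 by 0.46 ± 0.09 (SE, adjusted p = 6.77e-04). The lid had 5 genes lower and none higher under both scalings. Psmb1 (-0.42 ± 0.09 SE, adjusted p = 0.00150) and Psmc6 (-0.34 ± 0.09 SE, adjusted p = 0.00465) were lower too, although neither was called with pamidronate alone.

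The 4 genes that were higher with GGOH than with pamidronate alone were Psma6, Psmc3, Psmc5 and Psmd5. Psmc5 rose by 0.58 ± 0.13 (SE, adjusted p = 0.00181), with 2 of its 3 libraries close above the pamidronate range and replicate 3 well above it. Psmd5 rose by 0.37 ± 0.11 (SE, adjusted p = 0.00997), Psmc3 by 0.32 ± 0.11 (SE, adjusted p = 0.0253) and Psma6 by 0.31 ± 0.10 (SE, adjusted p = 0.0184). Without pamidronate replicate 3 the calls of Psmd5 (0.28, adjusted p = 0.0604), Psmc3 (0.27, adjusted p = 0.0952) and Psma6 (0.23, adjusted p = 0.101) were lost, and that of Psmc3 also without pamidronate replicate 2 (0.31, adjusted p = 0.0719) or pamidronate + GGOH replicate 3 (0.28, adjusted p = 0.0594). Psma8 was not called (0.65 ± 0.28 SE, adjusted p = 0.0689), but was without pamidronate replicate 1 (1.09, adjusted p = 0.00347) or pamidronate + GGOH replicate 1 (0.82, adjusted p = 0.0385). Psmb5 (0.17), Psmb2 (0.12) and Psmd6 (0.18) had fallen with pamidronate and were not called here, although without pamidronate + GGOH replicate 1 Psmb5 (0.29, adjusted p = 0.0466) and Psmd6 (0.33, adjusted p = 0.0333) were. Core and regulatory genes had medians of -0.13 and -0.22. These values share the pamidronate libraries with the comparison before, so opposite signs between them are not separate evidence.

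Against the control, pamidronate + GGOH left small differences, nearly all downward under the main scaling. Of the 35 genes, 20 were called (57.1%, beside 52.4% of all genes tested), 2 higher and 18 lower (26.3% and 26.0% of all genes tested), but upper-quartile scaling gave 7 higher and 4 lower. The median was -0.23, beside 0.02 for all genes tested, and upper-quartile scaling moved these to -0.03 and 0.23. No tested subunit gene differed by 2-fold, beside 21.5% of all genes tested, and the groups lay apart for 21 of them, beside 58.2%. The largest falls were those of Psma8 (-0.96 ± 0.26 SE, adjusted p = 0.00706), Psmd6 (-0.54 ± 0.12 SE, adjusted p = 0.00145), Psmb2 (-0.54 ± 0.09 SE, adjusted p = 2.72e-04) and Psma1 (-0.47 ± 0.09 SE, adjusted p = 8.99e-04). These 4 calls were kept under each of the 18 alternatives. The others did not all hold, and 10 of the 20 were lost on leaving out some single library.

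The 2 genes that remained higher than in the control were Psmb6 (0.32 ± 0.10 SE, adjusted p = 0.0122) and Psmd8 (0.31 ± 0.10 SE, adjusted p = 0.0168). Their libraries did not overlap with the control, and both calls rested on single libraries. The call of Psmb6 was lost without control replicate 2 (0.28, adjusted p = 0.0657) or pamidronate + GGOH replicate 1 (0.21, adjusted p = 0.0816), and that of Psmd8 without either of these (0.27, adjusted p = 0.0861, and 0.22, adjusted p = 0.102) or control replicate 3 (0.24, adjusted p = 0.0745). Under the main scaling Psmb5 (-0.29 ± 0.10 SE, adjusted p = 0.0290) and Psmb7 (-0.26 ± 0.08 SE, adjusted p = 0.0148) were lower. With upper-quartile scaling neither Psmb5 (-0.09, adjusted p = 0.458) nor Psmb7 (-0.06, adjusted p = 0.517) was called. Both calls were also lost with the stricter filter on low counts (-0.17 and -0.14) and in a fit of both groups alone (-0.26 and -0.22). Psmb5 was not called without control replicate 2 (-0.29, adjusted p = 0.0822), control replicate 3 (-0.30, adjusted p = 0.0514) or pamidronate + GGOH replicate 1 (-0.22, adjusted p = 0.116), and Psmb7 without pamidronate + GGOH replicate 2 (-0.23, adjusted p = 0.0631). Of the ATPases, 4 were lower under the main scaling, beside 26.0% of all genes tested, and 0 under upper-quartile scaling. Among the 4 was Psmc5 (-0.42 ± 0.13 SE, adjusted p = 0.0120), not called without pamidronate + GGOH replicate 2 (-0.33, adjusted p = 0.0669). Psmd1 was lower (-0.34 ± 0.10 SE, adjusted p = 0.00968), with its 3 libraries under all control libraries. Its call was lost with upper-quartile scaling (-0.13, adjusted p = 0.234) or the stricter filter (-0.22, adjusted p = 0.0655). Psmd9 (0.10), Psmd11 (0.14), Psmd5 (0.04) and Psmb4 (-0.02) were not called, all genes that were called with pamidronate alone. With upper-quartile scaling Psmd9 (0.30, adjusted p = 0.0423), Psmb4 (0.18, adjusted p = 0.0494) and Psmd11 (adjusted p = 0.00475) were called higher than in the control, Psmd11 also with the stricter filter on low counts.

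The inducible catalytic subunits, left out by the rule, all fell with pamidronate. Psmb8, which replaces Psmb5, stood at 29.0, 31.3 and 27.1 CPM in the control, 10.9, 11.1 and 10.3 CPM with pamidronate and 14.7, 16.1 and 21.3 CPM with pamidronate + GGOH. Its fall was 1.43 ± 0.14 (SE, adjusted p = 3.82e-07), and those of Psmb9 and Psmb10, which replace Psmb6 and Psmb7, were 1.07 ± 0.20 (SE, adjusted p = 2.89e-04) and 1.31 ± 0.21 (SE, adjusted p = 6.87e-05). The inducible gene's TPM over that of its constitutive partner therefore dropped for each pair. Psmb9 over Psmb6 was 0.0577 ± 0.00565 (SD, n = 3) in the control, 0.00967 ± 0.00134 with pamidronate and 0.0378 ± 0.0150 with pamidronate + GGOH, the widest movement since both partners moved apart. Psmb8 over Psmb5 was 0.369 ± 0.0249, 0.188 ± 0.00200 and 0.268 ± 0.0400 (SD, n = 3), and Psmb10 over Psmb7 was 0.340 ± 0.0806, 0.150 ± 0.0361 and 0.262 ± 0.0272 (SD, n = 3). In all 3 pairs every pamidronate library lay under every control library. Of the interferon-inducible activator caps, Psme1 fell by 1.13 ± 0.13 (SE, adjusted p = 2.24e-06) and Psme2b by 1.82 ± 0.27 (SE, adjusted p = 2.86e-05), while Psme2, which resembles Psme2b in sequence, was not called (-0.29 ± 0.14 SE, adjusted p = 0.0764).

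Other genes of the pathway, in 9 lists, held 49 tested genes, of which 14 rose and 16 fell with pamidronate, beside 36.2% and 32.9% of all genes tested. Of the remaining regulatory particle subunits, Sem1, the small lid protein, rose by 0.69 ± 0.09 (SE, adjusted p = 8.73e-06), and Adrm1, a ubiquitin receptor, was not called (0.09 ± 0.09 SE, adjusted p = 0.365). Among the 5 assembly chaperones tested, Pomp, which matures the core, fell by 0.25 ± 0.08 (SE, adjusted p = 0.0118), although not with upper-quartile scaling (-0.06, adjusted p = 0.545), and none rose. The ubiquitin-activating enzymes split, Uba1 lower (-0.87 ± 0.10 SE, adjusted p = 2.17e-06) and Uba6 higher (0.57 ± 0.07 SE, adjusted p = 6.89e-06). Of 12 proteasome-bound enzymes and shuttles, 4 rose and 3 fell, beside the same 36.2% and 32.9% of all genes tested. The highest were Zfand2a, a heat-shock-inducible factor that binds the proteasome, at 37.3, 39.2 and 41.6 CPM in the control and 223, 239 and 233 CPM with pamidronate (2.56 ± 0.14 SE, adjusted p = 4.76e-09), and Zfand5, a proteasome activator (1.49 ± 0.12 SE, adjusted p = 1.46e-07). Zfand2a still stood at 160, 129 and 102 CPM with pamidronate + GGOH. Of the 5 genes of the p97 segregase complex, 3 rose and 1 fell, beside the same shares of all genes tested, with Ufd1 (0.71 ± 0.10 SE) and Faf2 (0.41 ± 0.09 SE) the highest.

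Of the 10 factors that control subunit transcription or process such factors, 4 rose and 4 fell with pamidronate, beside 36.2% and 32.9% of all genes tested. Nfe2l1 stood at 241, 213 and 175 CPM in the control, 245, 246 and 257 CPM with pamidronate and 199, 200 and 213 CPM with pamidronate + GGOH, and its rise of 0.25 ± 0.10 (SE, adjusted p = 0.0423) was lost under 14 of 18 alternatives, among them the fits without any single library other than control replicate 1, and most strongly without control replicate 3 (0.08, adjusted p = 0.483). Ngly1, the enzyme that deglycosylates the Nfe2l1 protein, was low throughout and fell from 5.37, 5.88 and 6.49 CPM to 2.44, 1.90 and 2.11 CPM (-1.46 ± 0.26 SE, adjusted p = 1.40e-04). Nfe2l2, the antioxidant response factor, fell by 0.95 ± 0.11 (SE, adjusted p = 2.96e-06), as did Keap1, which targets its protein for degradation (-1.53 ± 0.14 SE, adjusted p = 2.96e-07). Nfe2l3, a relative, rose from 0.989 to 1.69 CPM in the control to 3.54 to 4.68 CPM (1.72 ± 0.30 SE, adjusted p = 1.15e-04). Maff, a small partner of these factors, rose from 4.67, 4.26 and 4.88 CPM to 19.1, 21.1 and 21.9 CPM (2.17 ± 0.16 SE, adjusted p = 4.17e-08). Transcript levels do not measure the activity of these factors.

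With pamidronate + GGOH against pamidronate alone, 11 of the 49 pathway genes were higher and 18 lower, beside 25.2% and 23.6% of all genes tested. Against the control 6 were higher and 21 lower, beside 26.3% and 26.0%. The 3 inducible catalytic genes were all higher than with pamidronate alone, Psmb8 by 0.69 ± 0.14 (SE, adjusted p = 8.76e-04), and the call of Psmb10 (0.68 ± 0.21 SE, adjusted p = 0.0160) was lost without pamidronate replicate 2 (0.57, adjusted p = 0.0780), pamidronate replicate 3 (0.57, adjusted p = 0.0762) or pamidronate + GGOH replicate 3 (0.57, adjusted p = 0.0527). Zfand5 fell by 1.07 ± 0.12 (SE, adjusted p = 1.02e-05) and Zfand2a by 0.83 ± 0.13 (SE, adjusted p = 1.15e-04). Zfand2a stayed furthest from the control in the last comparison (1.72 ± 0.13 SE, adjusted p = 9.09e-07), and Maff (1.38 ± 0.16 SE, adjusted p = 1.64e-05) stayed higher too.

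Reads of some members cannot be assigned with certainty. Exons of 9 members overlap another gene in the annotation, and 11 have a stretch of at least 100 bases at least 95% identical to another gene's transcript, such as the predicted genes Gm3375 for Psmb5 and Gm8394 for Psma5. The copies' own counts were low in these examples, 131, 72 and 82 for Gm3375 over the 3 libraries of control, pamidronate and pamidronate + GGOH, against 1288, 884 and 1082 for Psmb5. Psmd9 shares 25.5% of its exon bases with the antisense gene Gm26745, which had 0, 0 and 1 counts, and its counted model spans 80719 bases, far more than the transcript whose promoter is in RefSeq. Psmb7 overlaps Nek6 on the other strand over 11.8% of its exon bases, and strandedness of the counting is not given in the sources used here. Psmb6, Psma6, Psmc5 and Psmd6 have neither an overlap nor a near-identical transcript. Over the 20 members with neither, 14 were called with pamidronate (70.0%, beside 69.2% of all genes tested), 5 higher and 9 lower (36.2% and 32.9% of all genes tested).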

How the data were processed

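The deposited table of raw counts, whole numbers per gene, was the starting point. Per the submitters' processing notes, reads were trimmed with Trimmomatic 0.36 and GRCm38 was the build, while DESeq is named there without a role; the aligner, the counter and whether strand was used: not given in the sources used here. RNA (300 ng a sample) was made into libraries after ribosomal RNA depletion (Illumina), per the labels' protocols, in 1 batch. The authors' TPM values, which are counts over exon length brought to a common sum, served for levels between genes and for ratios within a library, with no test.

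Genes passing filterByExpr (15963) were fitted in 1 model of the 9 libraries with TMM factors (edgeR 4.0.16, robust quasi-likelihood test, R 4.3.3, Benjamini-Hochberg over all genes tested). SE was taken as the size of the log2 fold change divided by √F. The fit was tested on simulated data. Control titles name biological replicates, the other groups' do not, so p-values measure the spread between these samples. Values per library are given for Psmb5, Psmb6 and Psmb7, for the highest and lowest member of each subunit class with pamidronate and for members called against most of their particle. From the pathway lists up to 2 called genes each and some regulators are named, and Paaf1 was not analysed here; 1 gene that this took is not reported here. Members and lists were chosen with earlier results of these data known. As alternatives, scaling used upper-quartile or RLE factors, the filter was dropped or set to 50 counts in 3 libraries, the tool was DESeq2 1.42.0 or limma-voom (limma 3.58.1), the model held both groups only or a replicate block, and calls needed an adjusted p under 0.01. Others came from leaving out each library or the mitochondrially encoded genes with Gm26917. Exon overlaps were taken from the exons that the authors counted, near-identical transcripts from GENCODE M21 and promoters from RefSeq. The count of 0 for Psmb11 in the control allows up to 3 counts over 54812423, for counting error only.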

Additional observations from a re-analysis of the deposited data

How the results depend on the processing

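Of the calls among the 35 tested subunit genes, 12 of 24 (pamidronate against control), 11 of 19 (pamidronate + GGOH against pamidronate) and 4 of 20 (pamidronate + GGOH against control) were kept under each of the 18 alternatives that change the fit. With pamidronate these include Psmb6, Psmd8, Psmd9, Psmd11, Psmc5, Psma6 and Psma8. No called value of a named gene changed sign. Upper-quartile factors gave 19 higher and 7 lower subunit genes for pamidronate against control, with medians of 0.06 (core) and 0.24 (regulatory particle), and 7 higher and 4 lower for pamidronate + GGOH against control, with medians of -0.09 and 0.02. In the first of these comparisons no filter gave 6 higher, with medians of -0.22 and -0.04, and a stricter filter gave 8 lower, with medians of -0.02 and 0.16. Leaving out the mitochondrially encoded genes and Gm26917 gave a regulatory median of -0.00, and an adjusted p under 0.01 gave 7 higher. For pamidronate + GGOH against pamidronate, the regulatory median was -0.17 with no filter and -0.18 without the mitochondrially encoded genes, and 2 genes were higher at an adjusted p under 0.01. For pamidronate + GGOH against control, the number lower was 11 in a fit of both groups alone, 9 with the stricter filter and 10 at an adjusted p under 0.01, where 0 were higher. There the regulatory median was -0.22 with no filter, -0.15 with both groups alone and -0.07 with the stricter filter, which gave -0.17 for the core. The causes of these shifts were not tested.

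Leaving out each library in turn gave 6 to 10 genes higher for pamidronate against control (6 without control replicate 3), with core medians of -0.19 to -0.10 and regulatory medians of -0.02 to 0.06. For pamidronate + GGOH against pamidronate it gave 1 (without pamidronate replicate 3) to 7 (without pamidronate + GGOH replicate 1) higher, core medians of -0.16 to -0.05, regulatory medians of -0.27 to -0.17 and a difference of core minus regulatory of 0.03 to 0.13. For pamidronate + GGOH against control it gave 0 (without control replicate 2) to 2 higher, medians of -0.35 to -0.24 and -0.22 to -0.17, and a difference of -0.13 to -0.07. Replicate numbers showed no visible pairing: over 9 same-numbered pairs the deviations correlated at -0.224 to 0.204, and over differently numbered pairs at -0.215 to 0.177. Whether same-numbered libraries were handled together cannot be told from these values. With a replicate block, 11 genes were higher and 13 lower for pamidronate against control, 4 and 15 for pamidronate + GGOH against pamidronate, and 2 and 17 for pamidronate + GGOH against control, where the call of Psmc6 was lost (adjusted p = 0.0531). Psma8 had the lowest CPM of the tested members and the largest SE, and the part of depth in this was not tested.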
